A study of Mus musculus with 42 samples.

Results

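Major urinary protein (Mup) genes were read in the aorta and skeletal muscle of mice with and without diabetes. Their probes were all those on the array whose gene name is Mup followed by a number. This rule found 8 probes of 7 genes (Mup1, Mup3 with 2 probes, Mup4, Mup5, Mup6, Mup8 and Mup9) among 41174 probes and 27398 gene names. Interest in the family came from the values themselves. Mup1 and Mup4 had been picked out as very large decreases in diabetic against healthy mice, and the macroangiopathy group, set against the same healthy arrays, had been seen with them. Every difference of a Mup probe from the healthy group is therefore a description here and carries no test.

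Mice of 7 groups, all male and 18 to 20 weeks old before the diet and treatment described here, were compared, with 3 arrays for each group in each tissue and 42 arrays in all. The healthy group (G) was C57BL/6 given saline. The other groups were KK/Ay, a strain that becomes diabetic spontaneously and carries the yellow agouti allele. The diabetic group (A) was KK/Ay given saline. The macroangiopathy group (C) was KK/Ay that had received a high-fat diet and the nitric oxide synthase inhibitor L-NAME (0.2 mg/ml in drinking water) for 8 weeks and then saline by gavage for 8 weeks. The SHENQI compound (B), yangyinyiqi (D), huoxue (E) and rosiglitazone (F) groups had the same diet and L-NAME, followed by 8 weeks of a herbal preparation, 1 of its components or rosiglitazone, an agonist of PPARγ. Strain, coat colour allele and diabetes differed together between healthy and KK/Ay mice and cannot be told apart. The labels do not tie the tissues to individual mice, so p-values measure the spread between arrays.

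Mup genes encode small secreted lipocalins, barrel-shaped proteins that carry volatile pheromones. They form a dense cluster of near-identical copies and are made in bulk by the male liver, which releases them into blood for excretion in urine. In liver, pulsatile growth hormone drives their transcription through STAT5. Some members are also made in adipose tissue and in glands. In bulk tissue, fewer cells of a type and less RNA per cell cannot be told apart.

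The 7 probes with a position lay on chromosome 4 of the mm9 build, between bases 59969824 and 61744548, in the order Mup4, Mup6, Mup8, Mup9, Mup1, Mup5 and Mup3. Mup3 probe 1 had no position. The Mup1 probe spanned 224 bases of genome (60511965 to 60512188, minus strand) and the Mup8 probe 183 bases (60232592 to 60232774, minus strand), although both are 60 bases long, so neither aligned to the genome in 1 unbroken block. The Mup4 probe lay in 1 block (59969824 to 59969883, minus strand). The Mup1 and Mup8 probes, which share sequence, are printed below. Capitals mark their 31-base common run.
Mup1: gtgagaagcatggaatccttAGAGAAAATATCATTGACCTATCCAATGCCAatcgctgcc
Mup8: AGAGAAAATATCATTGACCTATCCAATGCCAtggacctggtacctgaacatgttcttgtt
No other pair of the 8 probes shared a run longer than 7 bases. Runs shared between probes do not show which transcripts each probe binds, and binding to other Mup transcripts was not tested. The Mup1 probe was annotated to 4 RefSeq transcripts, which belonged to Mup1, Mup12 and Mup15, and the Mup8 probe to 4, of which the 1 that matched was a Mup1 transcript. Both probes therefore measure near-identical copies jointly. The Mup4 and Mup5 probes each listed 1 transcript, of the gene they are named for.

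RefSeq promoter sequence (GRCm38.p6) was at hand for 4 of the member genes, Mup3, Mup4, Mup6 and Mup9. The 250 bases before the start site are shown for Mup4, one of the brightest members in healthy mice, and for Mup6, which was at background on nearly every array. Capitals mark their longest common run.
Mup4, chr4:59960668-59960917, minus strand: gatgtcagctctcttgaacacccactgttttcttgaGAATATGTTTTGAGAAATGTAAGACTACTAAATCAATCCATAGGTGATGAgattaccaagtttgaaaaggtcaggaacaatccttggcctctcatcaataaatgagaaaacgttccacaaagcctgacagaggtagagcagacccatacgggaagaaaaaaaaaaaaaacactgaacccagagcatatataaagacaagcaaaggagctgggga
Mup6, chr4:60003231-60003480, plus strand: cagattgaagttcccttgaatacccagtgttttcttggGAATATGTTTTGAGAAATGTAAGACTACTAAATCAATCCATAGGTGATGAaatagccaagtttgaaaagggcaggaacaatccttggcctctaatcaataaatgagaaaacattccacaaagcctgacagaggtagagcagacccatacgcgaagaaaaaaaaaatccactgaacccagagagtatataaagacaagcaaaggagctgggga
The shared run is 50 bases long and lies 214 to 165 bases upstream in Mup4 and 212 to 163 bases upstream in Mup6. The letters TTCNNNGAA, the pattern of a STAT5 site and its own reverse complement, occurred in 0 of 14 Mup promoters of the table and in 2306 of 32851 promoters of all genes (7.02%). That says only that these letters are absent from this window.

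In healthy mice both tissues gave strong Mup1 and Mup4 signals. Levels are log2 fluorescence after background correction and quantile normalization, and a probe counts as detected where the scanner software called it well above background. Between 49.7 and 73.9% of probes were detected on an array. Mup1 read 11.11, 13.44 and 13.03 in the 3 healthy aortas. In healthy muscle it read 13.08, 10.33 and 11.20. Mup4 moved with it, at 10.58, 12.98 and 12.27 in healthy aorta and 12.67, 9.95 and 10.78 in healthy muscle. Each tissue thus held 1 array that was apart from the other 2, low in aorta and high in muscle, and the spread within a tissue exceeded 1 log2 unit (Mup1 12.53 ± 1.24 in aorta and 11.54 ± 1.41 in muscle, SD, n = 3).

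**Figure D1:**
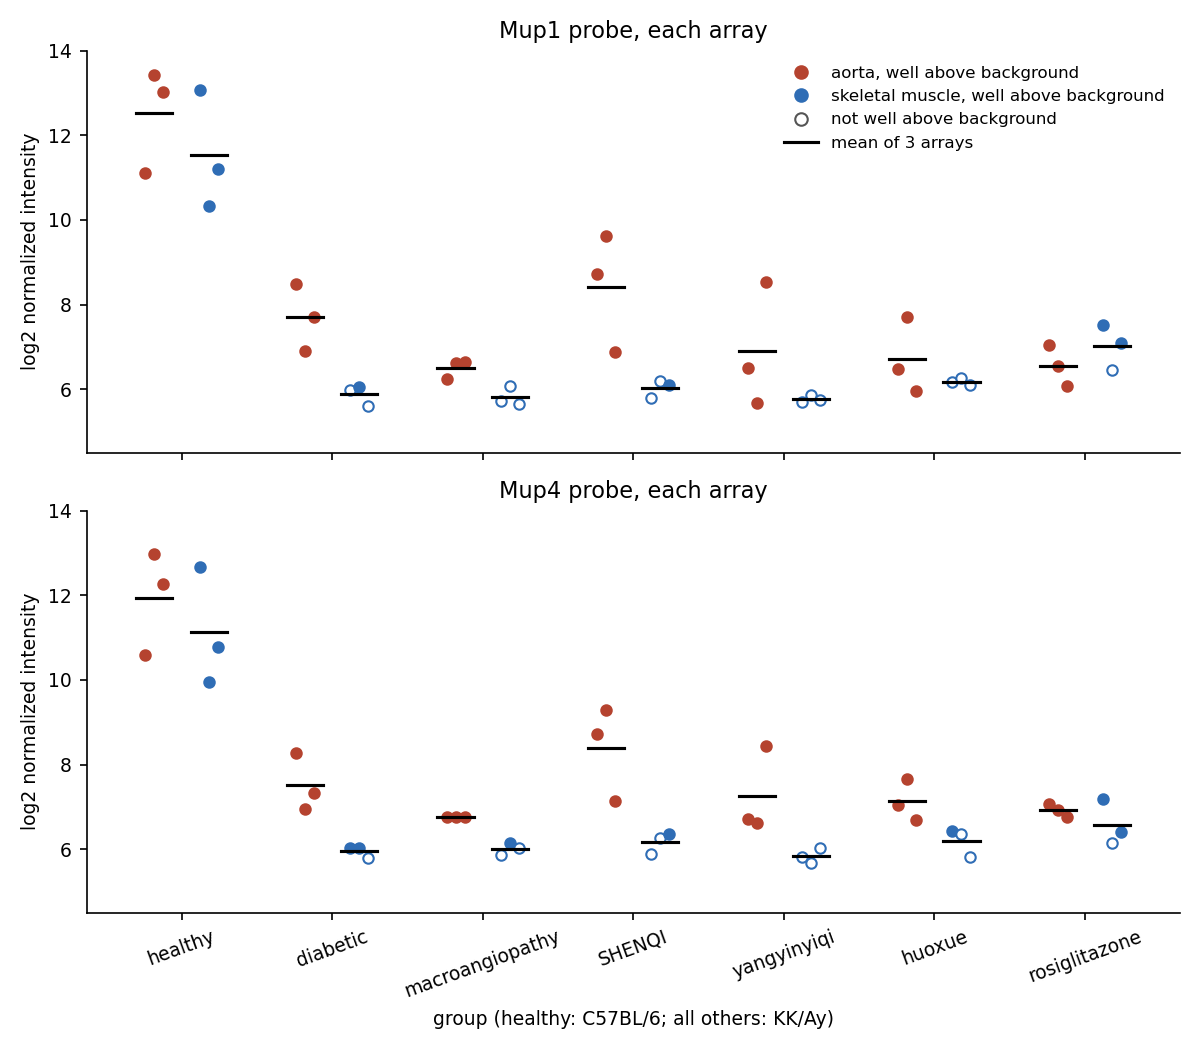
Log2 levels of Mup1 and Mup4 (vertical axes) on each of the 42 arrays by group (horizontal axis), aorta in red and skeletal muscle in blue, with filled points for detected probes, open points for probes not well above background, and bars for the mean of 3 arrays. The 6 healthy arrays lie above all 36 KK/Ay arrays for both genes.

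In the KK/Ay mice every one of these values was lower. Diabetic aorta read 8.49, 6.90 and 7.72 for Mup1, and macroangiopathy aorta 6.24, 6.62 and 6.63. Both groups lay below the lowest healthy aorta (11.11). The mean was 28.3-fold lower in diabetic and 65.3-fold lower in macroangiopathy than in healthy aorta. Mup1 was nevertheless detected on 18 of 18 KK/Ay aorta arrays. In muscle it read 5.98, 6.05 and 5.61 in diabetic and 5.73, 6.07 and 5.65 in macroangiopathy mice, and was detected on 1 and 0 of their 3 arrays. The macroangiopathy muscle value is therefore a bound, at least 51.7-fold below healthy muscle, and the 50.5-fold difference of diabetic muscle rests on 1 array with a detected signal. Bounds here set the healthy mean against the higher, on each array, of the probe's own signal and the lowest detected signal.

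Mup4 showed the same picture. Diabetic aorta read 8.27, 6.96 and 7.33, and macroangiopathy aorta 6.76, 6.77 and 6.77. The probe was detected on 18 of 18 KK/Ay aorta arrays but on 7 of 18 KK/Ay muscle arrays, where it ranged from 5.67 to 7.19 with a median of 6.03. As the mean over both tissues, Mup1 differed from healthy by -5.24 in the diabetic and -5.88 in the macroangiopathy group, and Mup4 by -4.81 and -5.15. These are the differences on which the 2 genes were chosen.

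The remaining probes formed a graded series. Mup5 was next, with 7.30, 11.04 and 8.49 in healthy aorta and 8.83, 6.89 and 8.55 in healthy muscle. Across KK/Ay arrays Mup5 ranged from 5.37 to 7.03 in aorta, detected on 9 of 18, and from 4.78 to 5.48 in muscle, detected on 0 of 18. Mup8 read 6.52, 9.47 and 7.62 in healthy aorta and 8.25, 6.72 and 6.71 in healthy muscle. It was detected on 2 of 18 KK/Ay aorta arrays and 0 of 18 muscle arrays, so its level was at least 4.71-fold lower in diabetic and at least 5.70-fold lower in macroangiopathy aorta, and at least 2.97-fold and 3.34-fold lower in muscle. Like the pair above, Mup5 and Mup8 had no overlap between healthy and any KK/Ay group in either tissue.

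The probes named Mup3, Mup6 and Mup9 overlapped with healthy muscle in every KK/Ay group. In aorta there was no overlap with healthy in 5 of 6 groups for Mup3 probe 2 and in 4 of 6 for Mup9. For Mup6 and Mup3 probe 1 this held in 2 of 6 groups. Mup3 probe 2 read 7.02, 7.08 and 8.18 in healthy aorta against 6.83, 6.07 and 6.10 in diabetic aorta, and in muscle the groups overlapped (5.71 to 6.46 in healthy and 5.32 to 6.19 in diabetic mice). Mup9 was detected on 2 of 3 healthy aortas and 1 of 3 healthy muscles, and on 1 of the 36 KK/Ay arrays. Mup6 was detected on 1 array of all, a healthy aorta at 7.22. Mup3 probe 1 was detected on 1 of 3 healthy aortas and 2 of 18 KK/Ay aortas.

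**Figure D2:**
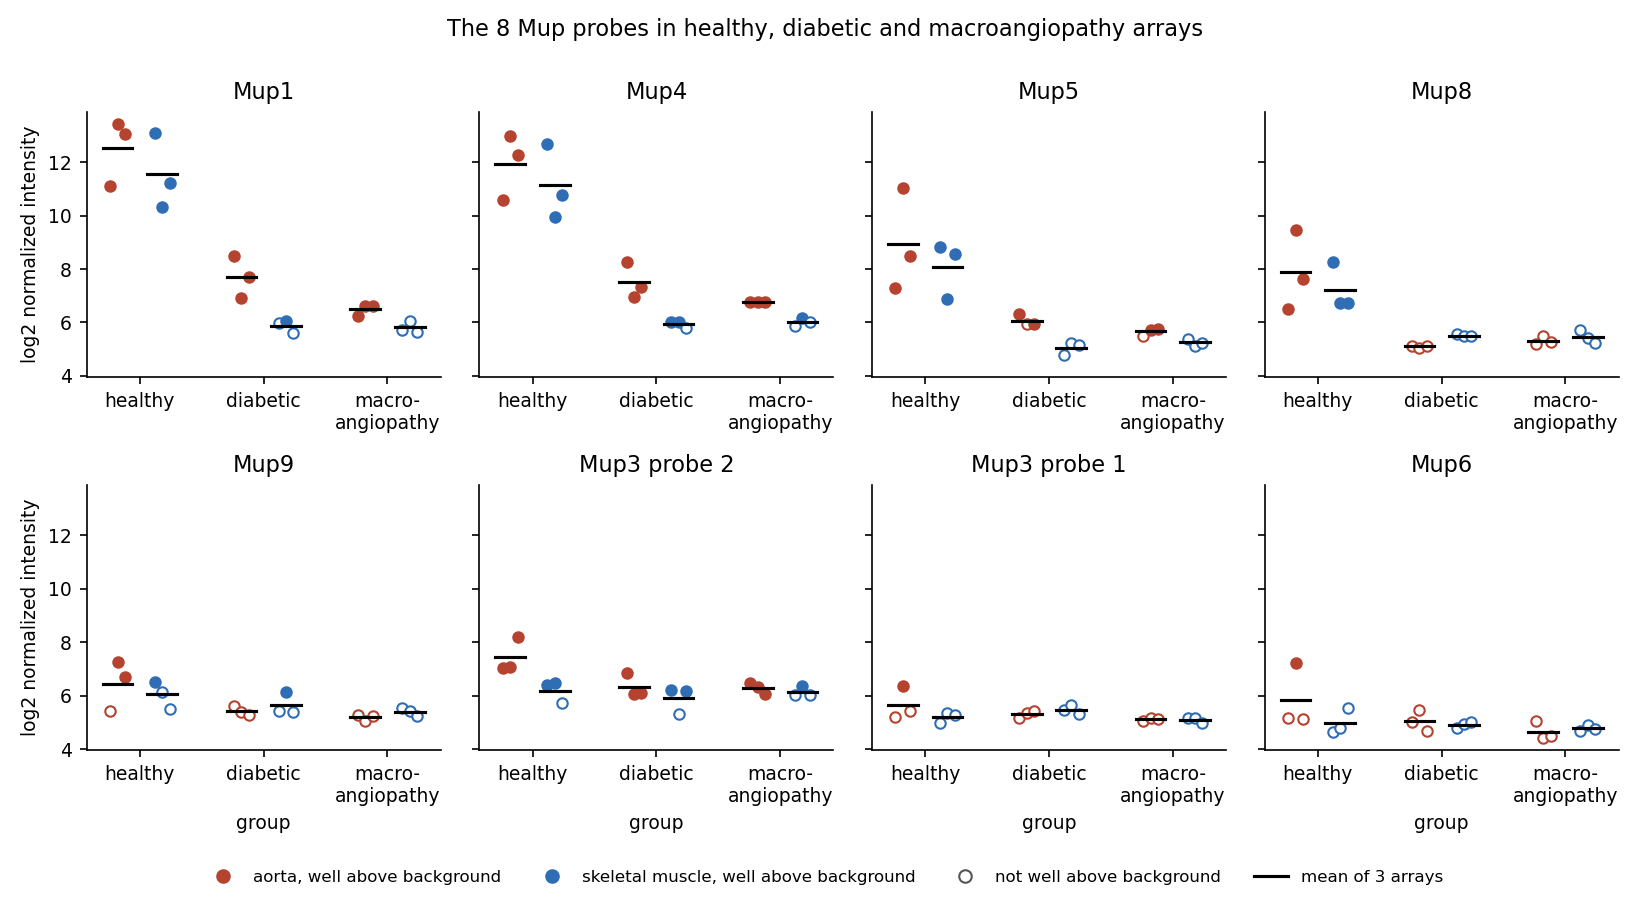
Log2 levels (vertical axes) of the 8 Mup probes on healthy, diabetic and macroangiopathy arrays, 1 panel for each probe, aorta in red and skeletal muscle in blue, with filled points for detected, open points for not detected, and bars for the mean of 3 arrays. Mup1, Mup4, Mup5 and Mup8 separate healthy arrays from the others in both tissues, and the remaining 4 probes overlap in muscle.

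Of the 8 probes, 5 were bright enough to be compared across all probes with limma in the diabetic against healthy contrast, and all 5 were lower. Their median difference was -2.96, and that of all probes 0.03. Among all probes tested, 9.8% were lower and 21.8% changed in either direction at an adjusted p under 0.05. The same 5 probes had a median of -3.05 in macroangiopathy against healthy mice, where 9.79% of all probes were lower and 22.7% changed in either direction. Healthy and KK/Ay arrays did not overlap in either tissue for 4 probes in each contrast, against 3.22% of all probes in the diabetic and 3.47% in the macroangiopathy contrast. As the 5 passed the detection filter through the healthy arrays on which they were high, and the family was chosen on this contrast, nothing is read from these counts.

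A further 3 probes are described as major urinary protein but carry other names, and were not counted. One of them, ENSMUST00000132829, described as Mup9, ranged from 6.20 to 11.18 in healthy aorta and from 5.32 to 7.53 in KK/Ay aorta. In muscle it ranged from 6.13 to 8.28 and from 4.39 to 6.72. The second Mup9 transcript, ENSMUST00000127151, ranged from 5.82 to 9.86 and from 4.41 to 6.27 in aorta, and from 6.01 to 7.33 and from 4.74 to 5.85 in muscle. The third, TC1755975, overlapped between healthy and KK/Ay mice in aorta (5.48 to 6.28 and 5.48 to 6.29) and in muscle (5.10 to 6.08 and 5.36 to 6.58). The probe named Mup9 listed 1 RefSeq transcript, which was not matched to a gene.

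Whether the 2 healthy tissues differ is a question that the choice of members did not use. Of the 5 Mup probes tested, 1 differed, Mup3 probe 2, which was higher in aorta by 1.24 (95% interval 0.67 to 1.81, limma adjusted p = 0.000786). Aorta and muscle differ widely, with 33.5% of all probes called. The estimates for the other 4 were also higher in aorta, by 0.99 for Mup1 (-0.34 to 2.31, adjusted p = 0.254), 0.81 for Mup4 (adjusted p = 0.271), 0.85 for Mup5 (adjusted p = 0.219) and 0.64 for Mup8 (adjusted p = 0.235), but did not pass the test. Single arrays decided this outcome. Without healthy aorta 1, 5 probes were called, and without healthy muscle 1, 4 were called. The call of Mup3 probe 2 was lost with only the compared arrays in the fit (adjusted p = 0.104), and under the stricter filter the probe was not tested and 0 were called. Without healthy aorta 2, Mup5 and Mup8 turned to -0.19 and -0.16.

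Ordered by mean, the 14 group-by-tissue sets of Mup1 ran from healthy aorta (12.53) and healthy muscle (11.54) through SHENQI aorta (8.41 ± 1.40, SD, n = 3), diabetic aorta (7.70 ± 0.79), rosiglitazone muscle (7.02 ± 0.53), yangyinyiqi aorta (6.90 ± 1.46), huoxue aorta (6.71 ± 0.90), rosiglitazone aorta (6.56 ± 0.49) and macroangiopathy aorta (6.50 ± 0.22) to the other 5 muscle sets, between 6.18 and 5.77. Neighbours in this order overlapped everywhere but at 1 step, between healthy muscle, whose lowest array was 10.33, and SHENQI aorta, whose highest was 9.62. Mup4 led with the same 4 sets, at 11.94, 11.13, 8.38 and 7.52. In KK/Ay mice the muscle mean of Mup4 lay below its aorta mean in each group, rosiglitazone included (6.58 and 6.92). For Mup1 it did so in each group but rosiglitazone, and Mup1 was detected on 4 of 18 muscle arrays. Of these 4, 2 were rosiglitazone arrays, at 7.52 and 7.08, and the remaining rosiglitazone muscle read 6.46.

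The healthy arrays stood above KK/Ay arrays within slides as well. A slide holds several arrays that are hybridised together. On a slide with 2 healthy aortas, Mup1 read 13.03 and 11.11 against 8.73 and 8.49 on the KK/Ay aortas beside them. A second had 13.44 in healthy aorta against 9.62 and 6.87. On a slide of muscle arrays, healthy read 13.08 and 10.33 and rosiglitazone 7.08 and 6.46.

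The macroangiopathy and diabetic groups differ by high-fat diet and L-NAME. Macroangiopathy minus diabetic was -0.63 for Mup1 (95% interval -1.57 to 0.30) and -0.34 for Mup4 (-1.14 to 0.45), over both tissues. Mup3 probe 2 differed by 0.09 (-0.31 to 0.49). None of the 3 probes tested was called (limma adjusted p = 1 for each), 0 had an unadjusted p under 0.05, and of all probes 0% were called and 2.6% had an unadjusted p under 0.05. In aorta alone the difference of Mup1 was -1.20 (-2.53 to 0.12, adjusted p = 1). The intervals are wide enough to hold differences of more than 1 log2 unit.

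The treatments were set against the macroangiopathy group. SHENQI aorta read 8.73, 9.62 and 6.87 for Mup1, and each of these exceeded the highest macroangiopathy aorta (6.63). For Mup4 it read 8.72, 9.30 and 7.13, also above macroangiopathy aorta (6.77). Over both tissues the differences were 1.06 (95% interval 0.12 to 1.99) for Mup1 and 0.89 (0.09 to 1.68) for Mup4, with limma adjusted p = 1 for both. In aorta alone they were 1.91 (0.58 to 3.23) and 1.62 (0.49 to 2.74), again with adjusted p = 1. The tissues were not shown to differ in this response (interaction of 1.70 for Mup1, limma adjusted p = 1). So 0 of 3 Mup probes were called and 2 had an unadjusted p under 0.05, where all probes gave 0% and 1.58%.

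**Figure D3:**
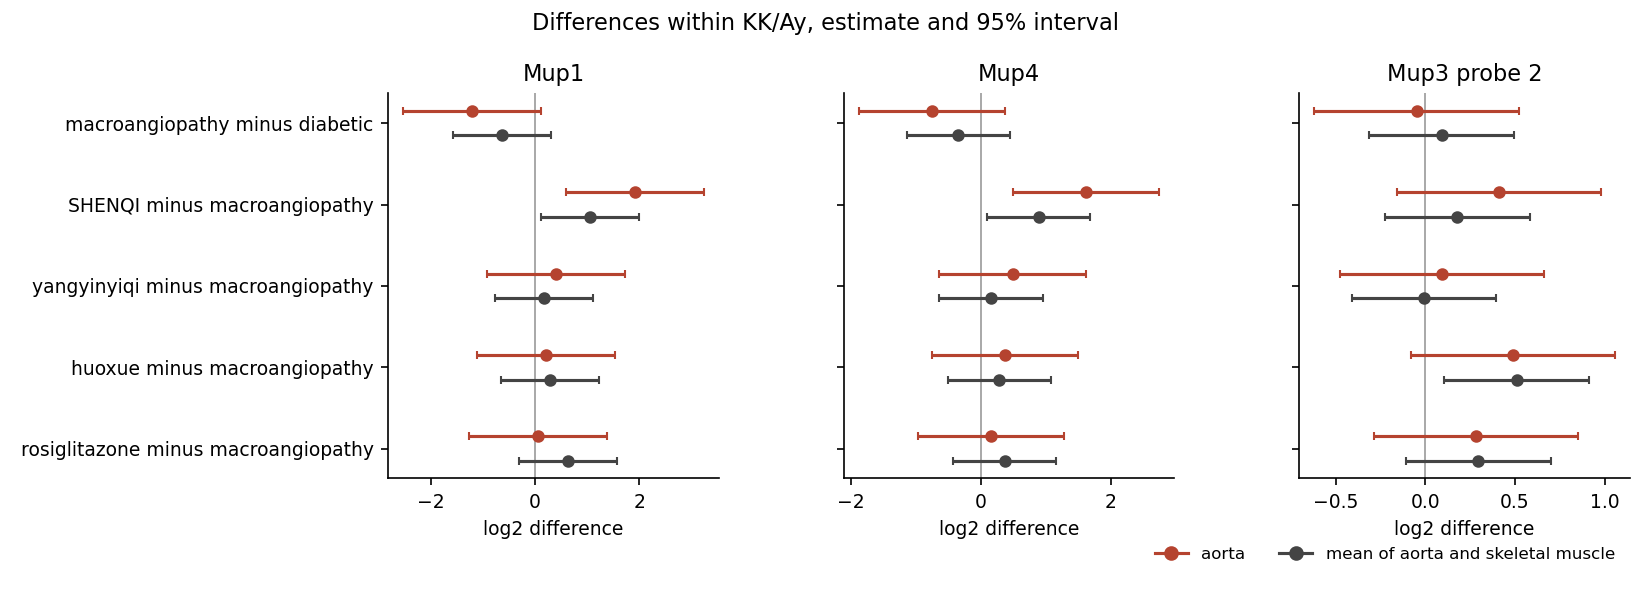
Log2 differences of Mup1, Mup4 and Mup3 probe 2 between KK/Ay groups, with points for the estimate and bars for its 95% interval, in aorta (red) and as the mean of both tissues (grey), each panel on its own scale. SHENQI minus macroangiopathy lies above 0 for Mup1 (1.91 in aorta) and Mup4 (1.62 in aorta), and no difference passed adjustment over all probes.

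Slide and albumin moved with the SHENQI aorta values. All 6 KK/Ay aorta arrays hybridised on slides with healthy arrays were diabetic or SHENQI, and Mup1 ranged over them from 6.87 to 9.62 (median 8.10), against 5.68 to 8.53 (median 6.52) on the other 12. Albumin (Alb), the main liver plasma protein, read 6.67, 6.84 and 5.67 in SHENQI aorta and 5.42, 5.78 and 5.67 in macroangiopathy aorta. The part of either in the difference was not tested.

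Over both tissues the other 3 treatments gave smaller differences for Mup1 and Mup4. For Mup3 probe 2, SHENQI differed from macroangiopathy by 0.18 (95% interval -0.22 to 0.58), less than huoxue or rosiglitazone. Yangyinyiqi differed from macroangiopathy by 0.18 for Mup1, 0.16 for Mup4 and -0.01 for Mup3 probe 2, with 0 called and 0 at an unadjusted p under 0.05 (0% and 0.775% of all probes). Its 3 aortas read 6.50, 5.68 and 8.53 for Mup1, and without the last of these the differences were -0.23 for Mup1 and -0.14 for Mup4. Huoxue differed by 0.29 for Mup1, 0.28 for Mup4 and 0.51 for Mup3 probe 2 (95% interval 0.11 to 0.91, limma adjusted p = 0.215). None of these 3 was called and 1 had an unadjusted p under 0.05, where 0.426% and 14.4% of all probes did. Rosiglitazone differed by 0.63 for Mup1 (-0.31 to 1.57), 0.37 for Mup4 (-0.43 to 1.16) and 0.30 for Mup3 probe 2 (-0.11 to 0.70), with 0 called and 0 unadjusted (0.00352% and 8.93% of all probes). None of the 4 treated groups came near healthy levels. Over both tissues Mup1 lay below healthy by -4.82 in SHENQI, -5.70 in yangyinyiqi, -5.59 in huoxue and -5.24 in rosiglitazone mice.

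Mup1 and Mup4 rose and fell together from array to array. Pearson's r between them was 0.99 over the 6 healthy arrays (Spearman's rho 1), 0.97 over the 18 KK/Ay aorta arrays (rho 0.94) and 0.86 over the 18 KK/Ay muscle arrays (rho 0.82, r 0.67 without the 2 arrays farthest from the median). With each set's mean taken out it was 0.95 over 42 arrays. Mup5 followed Mup1 in KK/Ay aorta (r 0.90, rho 0.92). For Mup8, mostly undetected there, r was 0.58 and rho 0.25, and r fell to 0.08 without the 2 farthest arrays. Their probes share no run above 7 bases with the exception of the Mup1 and Mup8 pair, but whether different probes bind the same transcripts was not tested. Both probes of a pair are read from the same RNA and array, so these values describe likeness and carry no p.

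Genes named Mup were left out of a search for likeness among 15999 genes. The one most like the mean of Mup1, Mup4, Mup5 and Mup8 within sets was the Mup9 transcript ENSMUST00000132829 (r 0.70 over 42 arrays), a family member kept under its other name. It was followed by Sfrp2, a secreted Wnt modulator (0.67), Acly, ATP citrate lyase of fatty acid synthesis (0.65), Ltbp2, a matrix protein (0.65), and Rgs2, a regulator of G-protein signalling (0.63). On healthy aortas 1, 2 and 3 the Mup mean was 8.88, 11.73 and 10.35. Sfrp2 read 7.32, 11.04 and 10.18 there, Acly 7.57, 11.30 and 10.43, and Ltbp2 10.35, 12.76 and 12.03. These few arrays can weigh heavily on r, which was not computed without them. Over the 14 set means the order was headed by LOC100505027 (0.99), a predicted transcript at 7.76 to 9.63 in healthy aorta and 5.49 to 8.25 in KK/Ay aorta. Tgtp1, a T-cell specific GTPase, Rint1, A630077J23Rik and Ints2, a subunit of the integrator complex, each reached 0.97, and 96 genes exceeded 0.9. Both healthy sets are the highest of the 14 for the Mup mean, so each of these values spans the step between healthy and KK/Ay.

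Since Mup transcripts are best known from liver and are also made in fat, markers of both were read on the same arrays. Of 14 hepatocyte genes, 6 were detected on all 3 healthy aortas and 3 on all 3 healthy muscles, against 5 and 4 in diabetic mice and 5 and 2 in macroangiopathy mice. The mean level of the hepatocyte list ranged from 6.38 to 7.21 in healthy and 5.99 to 6.69 in KK/Ay aorta, and from 6.07 to 6.25 and 5.82 to 6.13 in muscle. Alb was 6.22, 6.13 and 9.09 in healthy aorta and 6.51, 6.28 and 5.85 in healthy muscle. The healthy muscle with the highest Mup1 (13.08) also had the highest Alb there, 6.51. The healthy aorta with the highest Mup1 (13.44) had the lowest Alb there, 6.13. Among 7 hepatocyte probes tested, 0 were higher and 1 was lower in diabetic mice. That was Cyp2e1, a cytochrome P450 made in liver and also in fat (-2.73, SE 0.34, limma adjusted p = 8.9e-07). In macroangiopathy mice Cyp2e1 (-3.30, adjusted p = 2.95e-08) and Alb (-1.04, adjusted p = 0.0404) were the 2 lower of 6. The medians of the list, -0.12 and -0.17, lay near that of all probes (0.03). Without Cyp2e1, the mean level of the list ranged from 5.82 to 6.50 in KK/Ay aorta. Healthy aortas 1 and 2 lay within that range, at or below 6.03, and healthy aorta 3 lay above it, at 6.89. In muscle this mean ranged from 5.80 to 5.98 in healthy and from 5.72 to 6.03 in KK/Ay mice. The ranges thus overlapped in both tissues.

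In KK/Ay aorta Alb and the Mup mean were alike, with r 0.77 and rho 0.80 over 18 arrays, and r 0.87 without the 2 arrays farthest from the median. Other liver genes were less so, Apoa1 with r 0.72 and rho 0.50 and Ahsg with r 0.13. In KK/Ay muscle the r of Alb was 0.21, and over the 6 healthy arrays 0.20. The highest Alb in KK/Ay aorta, 7.76 on huoxue array 2, went with Mup1 at 7.71, and diabetic aorta 3 had a like Mup1 of 7.72 with Alb at 5.59. Alb was detected on 8 of 18 KK/Ay aorta arrays. What part cells or RNA from another tissue had in these values was not tested.

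Fat was abundant in the dissected aorta. The 8 white adipocyte genes averaged 12.27 to 13.79 in healthy and 11.25 to 13.70 in KK/Ay aorta, and 10.43 to 11.77 and 9.43 to 12.29 in muscle, so the ranges overlapped in both tissues. Ucp1, which defines brown fat, read 14.98 to 17.45 in healthy aorta. Adipoq, the adipocyte hormone adiponectin, was 13.46, 15.28 and 15.28 in healthy aorta and 13.09, 11.66 and 10.92 in healthy muscle. In each tissue the array out of line for Mup1 was out of line the same way for Adipoq. Over the 6 healthy arrays of both tissues r was 0.71 for Adipoq (rho 0.49) and 0.84 for Cfd (rho 0.66). It was also 0.81 for Myh11, the myosin of smooth muscle (rho 0.77), and 0.59 for Plin1, a coat protein of fat droplets (rho 0.49). Without the 2 farthest arrays r became 0.82 for Adipoq, 0.86 for Cfd, 0.42 for Myh11 and -0.02 for Plin1. In KK/Ay aorta the r of Adipoq was 0.27 and that of Ucp1 -0.52. These are 12 marker genes in 3 sets of arrays, given without p.

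**Figure D4:**
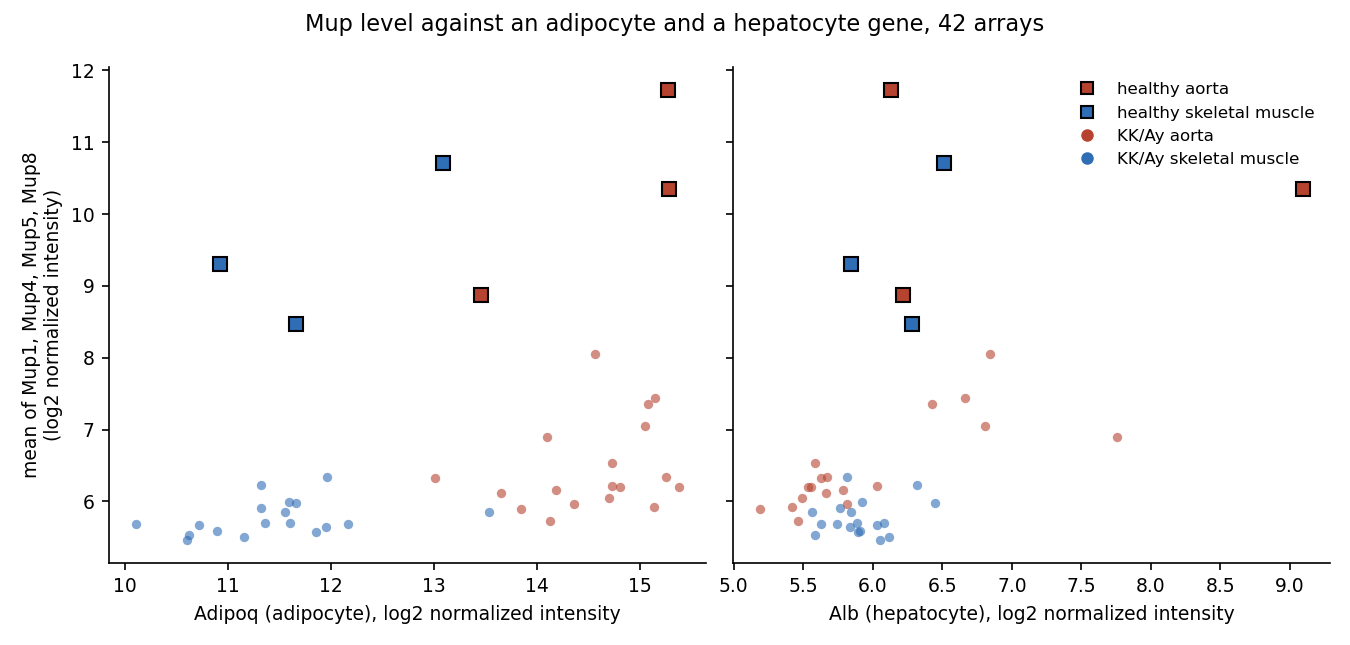
Mean log2 level of Mup1, Mup4, Mup5 and Mup8 (vertical axis) against the log2 levels of Adipoq and Alb (horizontal axes) on the 42 arrays, with squares for healthy and circles for KK/Ay arrays, aorta in red and skeletal muscle in blue. The 6 healthy arrays lie above all 36 KK/Ay arrays at any level of either marker, and within KK/Ay aorta the Mup mean goes with Alb (r 0.77).

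Of 12 white adipocyte probes tested, 1 was higher and 3 were lower in diabetic than in healthy mice, with a median of -0.23 beside 0.03 for all probes. Leptin (Lep) rose by 2.29 (SE 0.37, limma adjusted p = 4.18e-05), while complement factor D (Cfd) fell by 2.38 (adjusted p = 0.000648) and both probes of resistin (Retn) fell, at -3.02 and -3.32. In macroangiopathy mice the count was again 1 and 3, with a median of -0.60. Of 5 brown adipocyte probes, 0 rose and 1 fell, Elovl3, a fatty acid elongase (-2.49, adjusted p = 0.00335 in diabetic mice). None of 20 skeletal muscle fibre probes passed the test in either contrast (medians 0.95 and 0.11). Of 11 smooth muscle probes, 1 was higher in diabetic and 6 in macroangiopathy mice, and none lower (medians 0.75 and 1.12), with list means of 9.43 to 13.33 in healthy and 12.01 to 14.38 in KK/Ay aorta. None of 6 gland and epidermis probes passed the test. With the day of scanning as a block, a fit chosen after seeing the data, the 3 lower white adipocyte calls and Cyp2e1 (-2.65, adjusted p = 0.00236) held in diabetic mice, while Lep (adjusted p = 0.0545), Alb in macroangiopathy mice (adjusted p = 0.507), Elovl3 and all smooth muscle calls were lost.

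The growth hormone and STAT5 pathway, the known driver of Mup genes in liver, was read next. Of 21 probes for 10 genes, 4 were higher and 1 was lower in diabetic mice. The growth hormone receptor (Ghr) was higher with 2 of its probes, by 0.55 (limma adjusted p = 0.0240) and 0.62 (adjusted p = 0.0191). The STAT5-repressed factor Bcl6 rose by 0.49 (adjusted p = 0.0330). Stat5b had 1 probe up (0.37) and 1 down (-0.43), so its probes disagreed. In macroangiopathy mice 2 probes were higher and 2 lower, Bcl6 at 0.65 and Stat5b at 0.35 against Stat5b at -0.46 and the feedback inhibitor Socs3 at -1.26. The median of the list was 0.07 in the diabetic and -0.04 in the macroangiopathy contrast. Of all probes, 21.8% changed in either direction in the first contrast and 22.7% in the second, the shares to set beside the count of any list here. With the day of scanning as a block, 1 probe of the list was higher and 0 were lower in diabetic mice, and in macroangiopathy mice 0 passed in either direction.

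Among factors listed as regulators of Mup transcription, Cebpb, a liver and fat activator, was lower with both probes. It differed by -0.79 and -0.81 in diabetic and -0.98 and -0.93 in macroangiopathy mice (limma adjusted p from 0.00201 to 0.0204). Rsl1, a KRAB zinc finger repressor on the list, was lower with 1 probe in diabetic (-0.49, limma adjusted p = 0.0469) and with 2 in macroangiopathy mice (-0.46 and -0.55). Whether it acts on Mup genes was not tested. The glucocorticoid receptor Nr3c1 was higher in macroangiopathy mice with 1 of its 4 probes (0.56, adjusted p = 0.0451), and the others, at 0.08, 0.35 and 0.07, did not pass. Over the list, 0 of 12 probes were higher and 3 lower in the first contrast, and 1 of 13 higher and 4 lower in the second. Hnf4a, a liver activator, differed by -0.14 and -0.26 and did not pass the test. None of these calls held with the day of scanning as a block (Cebpb in diabetic mice -0.82 and -0.65, adjusted p = 0.201 and 0.254), and 2 lower calls held in each contrast with only the compared arrays in the fit. Over all the lists, 8 of the 20 probes called in diabetic and 12 of the 27 called in macroangiopathy mice lost the call without some single array. Among them were every Rsl1, Nr3c1, Ghr and Stat5b call, Socs3 (-0.57 without healthy aorta 1), Alb (-0.56 without healthy aorta 3) and Myh11 (0.94 without healthy aorta 1). In diabetic mice they also included the Cebpb probe at -0.79 (limma adjusted p = 0.0577 without healthy aorta 3). Bcl6 lost its call there too (0.42 without healthy aorta 1, limma adjusted p = 0.1005).

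Of 10 probes of other lipocalins tested, 1 rose and 4 fell in each contrast, with medians of -0.05 and 0.03. Those that fell in diabetic mice were Lcn2, an acute-phase siderophore binder (-2.34), and the orosomucoids Orm1 (-1.69), Orm2 (-1.97) and Orm3 (-1.30), acute-phase plasma proteins of liver and fat. Rbp4, the retinol carrier, rose by 1.43. Healthy aorta 1 stood apart for both Lcn2 (11.84, against 6.52 and 6.88 on the other healthy aortas) and Rbp4 (9.23, against 13.46 and 12.78). Without it Lcn2 was lower by -1.49 (limma adjusted p = 0.0120), and Rbp4 differed by 0.78 and did not pass (adjusted p = 0.0663). Without healthy muscle 2 the difference of Lcn2 was -2.98. Orm1 ranged from 10.22 to 11.08 in healthy and 6.79 to 9.72 in KK/Ay aorta, whereas in muscle healthy (6.42 to 8.54) and KK/Ay (6.02 to 8.26) overlapped. In aorta alone the 3 orosomucoids fell, at -2.93, -3.05 and -2.56 (limma adjusted p from 2.09e-05 to 0.000636), and in muscle alone Orm1 and Orm2, at -0.44 and -0.90, did not pass. With the day of scanning as a block none of these calls held in diabetic mice and Orm3 alone held in macroangiopathy mice, and in diabetic mice with only the compared arrays in the fit 1 held, Orm2 (adjusted p = 0.0412).

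The orosomucoids lie on the same chromosome as the Mup cluster, so its surroundings were read. Probes of 64 other gene names lay within 2000000 bases of the member probes, and 69 of these probes were tested. Of all probes, 9.8% were lower and 21.8% changed in either direction in diabetic against healthy mice. Among the 69 neighbours tested, 3 were higher and 11 lower, with differences from -1.97 to 0.74 and a median of -0.19, beside 0.03 for all probes. The lowest were Orm2, Orm1 and Orm3, which begin 1280, 1262 and 1274 kb past the last member probe. Fkbp15 had 1 probe at -1.10 while its other tested probes did not pass the test, and Rod1, on the near side, differed by -1.09. No neighbour reached the -2.24 of Mup8, but Mup3 probe 2, also a tested member, was at -0.69, within the range of the neighbours. The 1 other feature between the member probes, ENSMUST00000098035, was too dim to test.

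**Figure D5:**
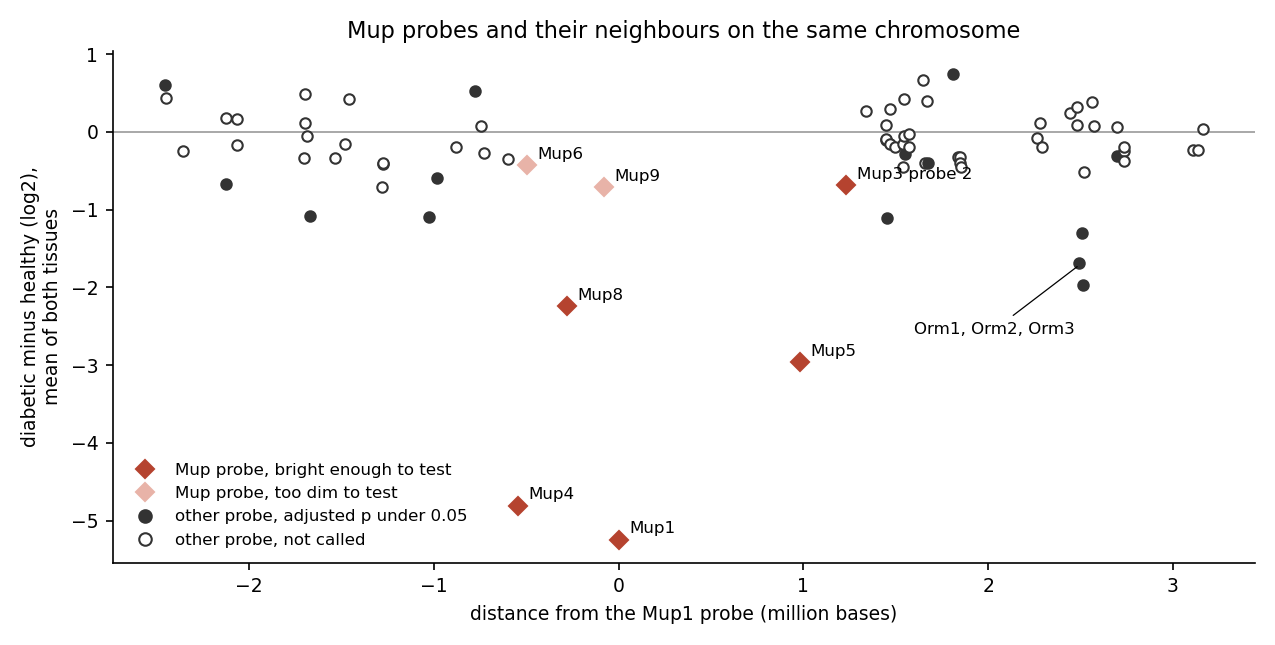
Log2 difference of diabetic minus healthy mice, as the mean of both tissues (vertical axis), against distance from the Mup1 probe in megabases (horizontal axis), with diamonds for Mup probes (pale where too dim to test) and circles for the tested neighbours (filled where called). Mup1, Mup4, Mup5 and Mup8 lie between -5.24 and -2.24, and the neighbours between -1.97 and 0.74. Mup3 probe 2 (-0.69) and the pale diamonds lie within the range of the neighbours.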

How the data were processed

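Aorta and skeletal muscle RNA from 7 groups of mice was hybridised in 1 colour (Cy3) on Agilent mouse arrays, 3 arrays for each group and tissue. The authors deposited scanner intensity for every spot, made with Agilent Feature Extraction 10.7.3.1 per the file headers (10.7 in the submitters' notes), with quality marks of 0 or 1, and a value table of log2 values, whose normalization is not given in the sources used here and which served as an alternative (every column median was 5.36). Here the median intensity was background-corrected with normexp (offset 0, fitted on all spots), quantile normalized over 42 arrays and put on the log2 scale, and spots of 1 probe were averaged. Control spots were left out after the background correction, and spots marked as non-uniform or population outliers were set to missing. Fits used limma 3.58.1 in R 4.3.3 over all probes, with 14 group-by-tissue means and Benjamini-Hochberg adjustment at 0.05, and were tested on simulated data. A probe entered a test where, in any of the sets compared, all 3 arrays had it well above background. Differences over both tissues are means of the aorta and muscle differences, and intervals are 95%. The number of arrays limits the precision.

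Groups came from the sample labels. The named genes were all Mup probes, every gene within 2000000 bases, the 5 genes most like the Mup mean by each of the likeness measures, and fixed lists of cell type markers, growth hormone and STAT5 genes, Mup regulators and lipocalins. The members and the lists were chosen with earlier results of these data known. Alternatives varied the background correction, signal, scaling, filter, samples in the fit, eBayes options, slide, scan day and replicate block, and left out each array.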

Additional observations from a re-analysis of the deposited data

How the results depend on the processing

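Of the Mup values recomputed under the alternatives, 653 stayed the same, 18 moved, 18 reversed, 7 passed the threshold and 1 lost it. For a tested difference, staying the same meant keeping direction and side of the threshold. For a difference from healthy, which carries no test, it meant a shift smaller than the probe's SD within sets. For a count of called probes it meant an equal or similar count. Diabetic minus healthy was -5.24 for Mup1 and -4.81 for Mup4, and became -6.44 and -5.88 with the processed signal and -6.58 and -6.00 with the authors' value table, and Mup4 -5.54 with subtracted background. Macroangiopathy minus healthy, -5.88 and -5.15, became -7.57 and -6.48, and -7.66 and -6.54, with these, -4.96 and -4.36 with a normexp offset of 50, and -6.81 and -5.98 with subtracted background. Leaving out single arrays gave -5.60 to -4.86 (Mup1) and -5.15 to -4.42 (Mup4) for diabetic, and -6.23 to -5.49 and -5.49 to -4.77 for macroangiopathy.

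Between healthy tissues, the 1 Mup probe called became 2 with scan day as a block (chosen after seeing the data), 0 with the stricter filter, under which Mup3 was not tested, 0 with only the compared arrays in the fit (Mup3 probe 2 adjusted p = 0.104 by limma), and 1 to 5 without single arrays. The difference ranged from 0.38 to 1.76 for Mup1, 0.22 to 1.58 for Mup4 (1.49 without healthy aorta 1), -0.16 to 1.32 for Mup8 and -0.19 to 1.68 for Mup5. Deviations of same-numbered arrays from different sets had a median correlation of 0.0048 (lowest -0.58). These pairs mix groups, that is, different mice, so this median cannot show whether the tissues of a group are paired by number. With a replicate block the difference between healthy tissues was 0.99 for Mup1 and 1 probe was called, and the block changed no other call.

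Within KK/Ay, 0 Mup probes were called under any alternative. Reversals were of differences near 0. For Mup3 probe 2, macroangiopathy minus diabetic turned to -0.0024 with the processed signal, -0.0488 in aorta alone, and -0.0547 to 0.216 without single arrays. Yangyinyiqi minus macroangiopathy for Mup3 probe 2 turned to 0.0067 with an offset of 50, 0.0171 with the processed signal, 0.015 with normalization within tissue, 0.074 with the value table, 0.0908 in aorta alone, and -0.139 to 0.108 without single arrays. For Mup1 and Mup4 it was -0.23 to 0.48 and -0.14 to 0.32, below 0 without yangyinyiqi aorta 3. Over all probes, 2512 were lower in diabetic than healthy mice, against 767 with the scan day block and 627 with only the compared arrays. The causes were not tested. KK/Ay muscle signals near background limit every value there.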
